A study of Mus musculus with 10 samples.

Results

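The genes described here encode the thick filament of the heart sarcomere, its M-band and titin. They are the cardiac myosin heavy chains Myh6, Myh7 and Myh7b, the ventricular essential light chain Myl3, cardiac myosin-binding protein C (Mybpc3), the cardiac myosin light chain kinase (Mylk3), the myomesins Myom1 and Myom2, and titin (Ttn). They were chosen by gene symbol from the 23337 genes of the authors' deposited table, and all 9 symbols were found there. The libraries came from cardiomyocytes of wild-type mice that received an adeno-associated virus of serotype AAV9 on postnatal day 1, at 5e+08 viral genomes per gram of body weight, and were taken on postnatal day 14. In the control group the virus expressed GFP, and in the other group it expressed dnMKL1-GFP, a dominant negative form of MKL1, a coactivator of serum response factor (SRF). Both viruses used the cardiac troponin T promoter (cTNT), so the carried gene was driven in cardiomyocytes of an animal with no engineered allele, and the controls also carried virus and GFP. Hearts were digested by collagenase perfusion, GFP-positive cells were sorted, and polyadenylated RNA was sequenced from 5 GFP and 5 dnMKL1 libraries, labelled as biological replicates.

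The thick filament is a bipolar bundle of myosin molecules, each with heavy chains that hold the motor head and with light chains that stiffen the lever arm. Myosin-binding protein C sits along the filament and slows cross-bridge cycling, the light chain kinase phosphorylates the regulatory light chain, and titin runs from the Z-disc to the M-band, where myomesins cross-link neighbouring filaments. In the mouse ventricle the fast alpha heavy chain encoded by Myh6 replaces the slow beta heavy chain encoded by Myh7 around birth.

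The authors' deposited table gives, for each gene, 1 mean over all 10 libraries in normalized counts (the base mean), a log2 fold change with its standard error (SE), and a Wald p-value with its Benjamini-Hochberg adjustment. No value of a single library was analysed here. Each group's mean was therefore derived by splitting the base mean according to the fold change, and it carries no replicate error of its own. A gene is said to have risen or fallen where its adjusted p was below 0.05. Mkl1, whose sequence dnMKL1 shares, had computed group means of 83.9 and 74899 normalized counts and set the direction: a positive log2 fold change is higher with dnMKL1. Size factors recovered from the table put the libraries at an estimated 8.80e+06 to 1.71e+07 counts with GFP and 8.84e+06 to 1.72e+07 with dnMKL1. The p-values measure the spread between these libraries, and in RNA from pooled cells fewer cells of a type and less RNA per cell cannot be told apart.

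The RNA carried the defining markers of ventricular cardiomyocytes, whose 6 listed genes summed to 370593 normalized counts with GFP and 279156 with dnMKL1. Of these 6, 3 fell and none rose, and their median log2 fold change was -0.42. The skeletal muscle list of 6 genes summed to 46.8 and 44.9, with the skeletal heavy chains Myh1, Myh2 and Myh4 at base means of 0.77 or less and Myf6 listed at 0. Of 6 endothelial markers, Kdr the most abundant, 0 passed the authors' adjusted Wald test and 0 had an unadjusted p below 0.05, and their sum was 2496 and 2552. The 7 fibroblast markers summed to 3195 and 4424, with Col3a1 the most abundant, 3 higher and none lower, and the 7 mural cell markers to 11791 and 7995, with 3 higher and 1 lower, the abundant Acta2. The 7 macrophage markers summed to 146 and 131, with 1 higher (Cd68, base mean 14.4) and none lower. The 4 erythroid markers summed to 54.4 and 76.3, and of the 3 with an adjusted p, 0 were called. The part of these cells in the results below was not tested.

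Of the 9 thick filament genes, 8 had an adjusted p, 4 fell with dnMKL1 and 0 rose by the authors' Benjamini-Hochberg adjusted Wald test; at an unadjusted p below 0.05 the counts were 5 and 0. Myl3, Myh6, Myom1 and Ttn were the genes that fell. Myh7b, Mybpc3, Mylk3 and Myom2 did not pass the test, and for Myh7 the p-value was missing. Across all 14056 genes with an adjusted p, 34.1% were called in either direction, 16.6% higher and 17.4% lower. Among the 140 genes whose base mean is at least 10000, 74.3% were called, 70.7% lower and 3.57% higher. Of the 9 genes, 7 are in that abundant class, and 4 of these 7 (57.1%) were lower, a difference of the shares that was not tested. The median log2 fold change of the 9 genes was -0.37, beside 0.02 over all tested genes and -0.60 in the abundant class. Together they took 8.22% of all normalized counts with GFP and 6.02% with dnMKL1.

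These directions depend in part on the scaling between groups. The computed group means summed over all genes to 1.33e+07 normalized counts with GFP and 1.09e+07 with dnMKL1. Scaling both groups to one total adds 0.29 to every log2 fold change. That total includes the counts of the 9 genes, 1.10e+06 with GFP and 657054 with dnMKL1, so this scale is not independent of them. The share of calls that are higher is 48.8% as deposited and 86.0% on that scale, where 40.4% of all tested genes are higher and 6.6% lower. On that scale Myl3 (-1.09), Myh6 (-0.58) and Myom1 (-0.58) were still lower by the authors' standard errors. Ttn lost its call at -0.12, while Mylk3 gained one at 0.42 in the other direction. The values of Mybpc3 and Myh7b turned positive, to 0.17 and 0.13.

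**Figure D1:**
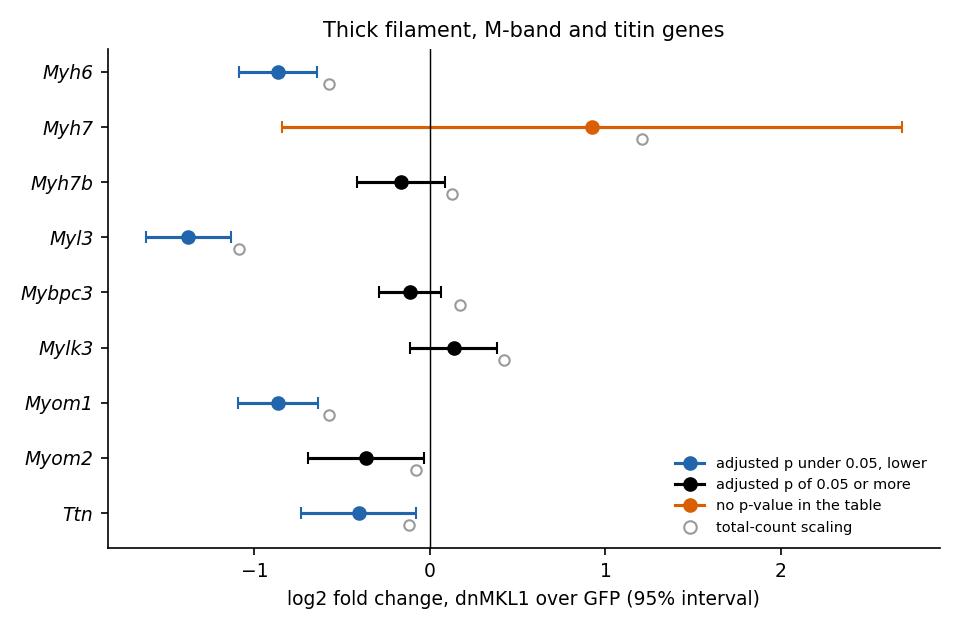
Log2 fold change (dnMKL1 over GFP, horizontal axis) of each of the 9 genes in the authors' deposited table, with bars for the 95% interval from its SE. Myl3, Myh6, Myom1 and Ttn lie below 0 with an adjusted p below 0.05, and the interval of Myh7 is the widest, from -0.85 to 2.69.

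**Figure D2:**
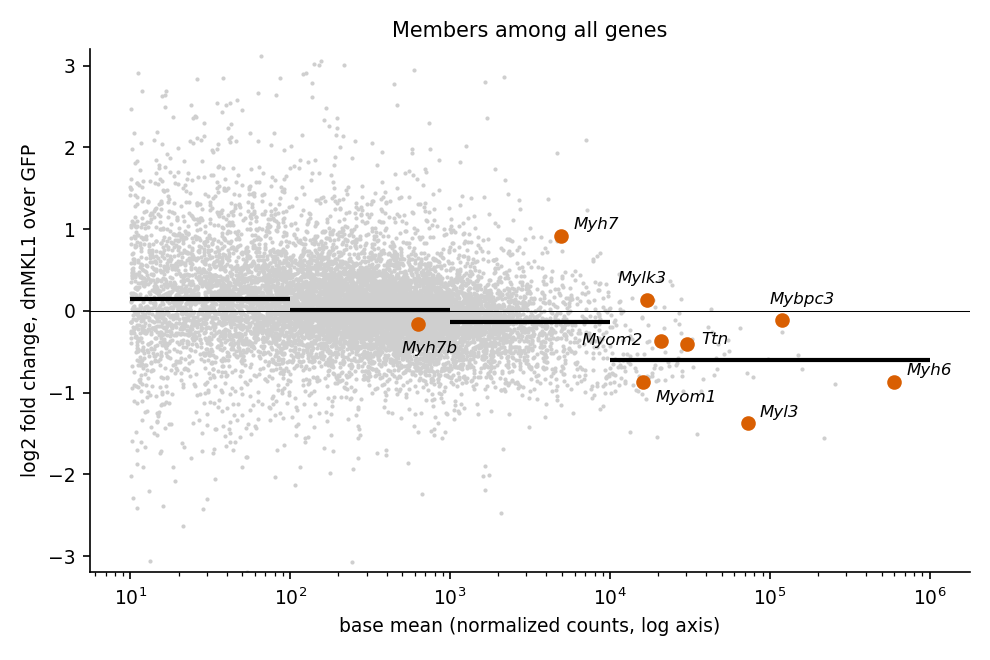
Log2 fold change against base mean (log axis) for genes whose base mean is at least 10, with the 9 genes marked and black lines for the median of each class of base mean; 41 of 11922 genes lie beyond the plotted range of 3.2 in either direction. The median goes from 0.14 at base means of 10 to 100 to -0.60 at 10000 or more.

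SRF binds a DNA element called the CArG box, and the sequence just upstream of the transcription start is shown for the genes that fell most and for Mybpc3, which did not pass the test. The sequences are from RefSeq (GRCm38.p6), read 5′ to 3′ on the strand of the gene, starting 250 bases before the RefSeq promoter table's start site and stopping before any exon of GENCODE M21 or, where it falls in the window, the first base of the RefSeq gene. The windows of Myom1 and Myh6 lie inside the span of the RefSeq gene, which has a start further upstream. Capitals mark exact matches on either strand to the CArG box CCWWWWWWGG and the MEF2 motif YTAWWWWTAR. They also mark the MCAT motif CATTCC and the GATA motif GATAA on either strand. W is A or T, Y is C or T and R is A or G. Sites with a mismatch were not searched for.
Myl3, chr9:110763428-110763645, plus strand: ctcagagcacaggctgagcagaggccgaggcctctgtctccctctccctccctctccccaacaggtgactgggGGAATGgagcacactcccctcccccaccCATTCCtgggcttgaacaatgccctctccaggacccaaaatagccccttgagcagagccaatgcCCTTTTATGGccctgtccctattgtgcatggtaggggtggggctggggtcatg
Myom1, chr17:71019307-71019520, plus strand: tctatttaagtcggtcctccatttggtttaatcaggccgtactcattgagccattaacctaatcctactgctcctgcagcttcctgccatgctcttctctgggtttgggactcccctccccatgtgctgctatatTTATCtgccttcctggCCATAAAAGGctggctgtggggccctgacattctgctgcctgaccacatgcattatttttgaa
Myh6, chr14:54966642-54966857, minus strand: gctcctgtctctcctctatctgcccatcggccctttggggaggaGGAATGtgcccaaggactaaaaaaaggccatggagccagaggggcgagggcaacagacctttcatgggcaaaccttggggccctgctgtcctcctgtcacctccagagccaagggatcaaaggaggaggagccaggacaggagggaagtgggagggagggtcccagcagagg
Mybpc3, chr2:91117894-91118113, plus strand: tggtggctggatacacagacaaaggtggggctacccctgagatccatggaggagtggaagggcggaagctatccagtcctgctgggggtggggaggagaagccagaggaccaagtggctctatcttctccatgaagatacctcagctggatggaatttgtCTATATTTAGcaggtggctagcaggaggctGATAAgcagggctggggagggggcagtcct
In Myl3 the CArG match CCTTTTATGG lies 85 to 76 bases before the start, and in Myom1 the match CCATAAAAGG lies 99 to 90 bases before it. The stretches of Myh6 and Mybpc3 hold no exact CArG match. Upstream windows were found for 8 of the 9 genes, all but Myom2, some with more than 1 window, and each gene was counted once if any of its windows held a match. A CArG match stood in 2 of the 8, Myl3 and Myom1, against 1.62% of all 27025 genes with RefSeq promoter windows of that length. The MEF2 motif stood in 2 of the 8 (3.42% of all genes), CATTCC in 4 (14.4%), GATAA in 5 (25.5%) and the E-box CANNTG in 8 (69.3%). Among 9 thin filament genes, 3 windows held a CArG match, those of Acta1, Actc1 and Nebl. Of the 6 thin filament genes that fell, only Actc1 held a match, and Acta1 (-0.20) and Nebl (0.04) did not pass the test. A match describes letters in this window and is not a measured binding site.

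Myh6, the alpha heavy chain and main motor of the adult mouse ventricle, was the most abundant of all genes in the authors' deposited table, with a base mean of 594986. Its computed mean was 768373 normalized counts with GFP and 421599 with dnMKL1, 45.1% lower. The authors' deposited table puts this at -0.87 on the log2 scale (SE 0.11, Benjamini-Hochberg adjusted Wald p = 1.1e-12), with a 95% interval from -1.09 to -0.64. This 1 gene took 5.76% of all normalized counts with GFP and 3.86% with dnMKL1. The Myh6 gene lies at chr14:54941921-54968017 on mm10, next to Myh7 at chr14:54970684-54994626.

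Myh7, the beta heavy chain of the fetal ventricle and of slow skeletal muscle, had computed means of 3422 with GFP and 6481 with dnMKL1. The authors' deposited table gives it a log2 fold change of 0.92 with an SE of 0.90 and no p-value, and the 95% interval ran from -0.85 to 2.69. That interval includes values on either side of 0, so no change of Myh7 can be stated. The SE corresponds to a spread between libraries of 98.8% of the mean, against a median of 10.4% over the 2128 genes whose base mean is at least 1000. Only Tnni3k, at 115%, was above Myh7 in that class. For the other 8 thick filament genes the implied spread was 9.80% (Mybpc3) to 18.5% (Myom2).

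For another 7 genes with a fold change the p-value is also missing, and among them are the atrial genes Nppa, atrial natriuretic peptide, and Mybphl. The atrial markers as a list had wide implied spreads, from 43.4% for Nr2f2 to 170% for Sln, and of the 4 with an adjusted p, 0 were called and 0 had an unadjusted p below 0.05 in the authors' Wald test. Their summed computed means were 2509 with GFP and 8265 with dnMKL1, of which Nppa made 1935 and 7359. Nppa had a log2 fold change of 1.93 in the authors' deposited table (SE 0.60), with a 95% interval from 0.76 to 3.09. Its p-value is missing for a reason not given in the sources used here, so no change of Nppa can be stated. The spread of Myl7, the atrial regulatory light chain, was 136%, and that of Myl4, the atrial essential light chain, 83.3%. The part of atrial cells in the value of Myh7 was not tested.

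**Figure D3:**
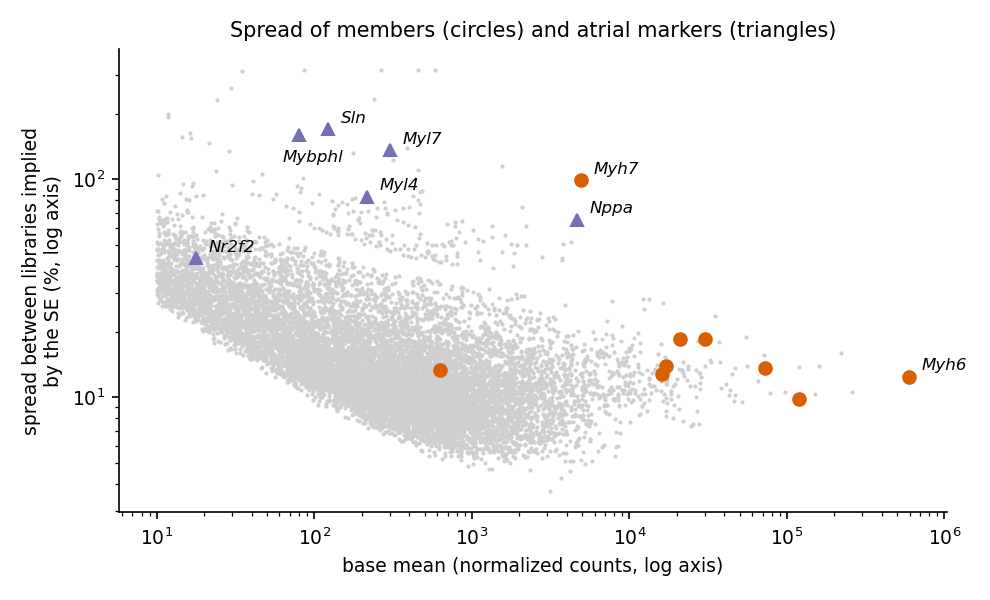
Spread between libraries implied by each SE (percent of the mean, log axis) against base mean (log axis), with the 9 genes as circles and atrial markers as triangles; 2 of 11922 genes under 1% are not drawn. Myh7 at 98.8% stands with the atrial markers above the other 8 genes, which lie between 9.80% and 18.5%.

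Myh6 and Myh7 are close copies, and reads from one can be counted for the other or dropped where the sequences are the same. Their coding sequences in GENCODE M21 are 5814 and 5805 bases long and 91.7% identical, and 16.4% of the 75-base windows of Myh6 also stand in Myh7. The longest shared run is 245 bases, coding positions 4246 to 4490 of Myh6 and 4240 to 4484 of Myh7.
Shared run of Myh6 and Myh7: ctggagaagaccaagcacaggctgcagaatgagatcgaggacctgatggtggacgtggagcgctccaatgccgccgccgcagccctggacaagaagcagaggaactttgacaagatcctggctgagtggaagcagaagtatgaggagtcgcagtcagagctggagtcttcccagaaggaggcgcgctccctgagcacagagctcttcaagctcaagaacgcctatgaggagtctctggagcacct
How the counting treated such reads is not given in the sources used here. Of the summed normalized counts of the 3 heavy chains, not divided by length, Myh6 made 99.5% with GFP and 98.3% with dnMKL1. Myh7 made 0.443% and 1.51%, and Myh7b 0.0862% and 0.139%. The ratio of Myh6 to Myh7 in these counts was 225 with GFP and 65.0 with dnMKL1, with the wide error of Myh7 in both. The difference between their log2 fold changes was -1.79, with an interval from -3.78 to 0.20 that includes 0.

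The heavy chain genes also hold small RNAs of the myomiR family, which are made from the introns of their hosts and are known to control the balance of fast and slow myosin. Their mature sequences from RefSeq are shown with the seed, bases 2 to 8, in capitals.
mmu-miR-208a-3p, in Myh6: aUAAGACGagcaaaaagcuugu
mmu-miR-208b-3p, in Myh7: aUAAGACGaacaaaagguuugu
mmu-miR-499-5p, in Myh7b: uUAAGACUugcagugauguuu
The seeds of miR-208a and miR-208b are the same, and that of miR-499 differs from them only at base 8. Polyadenylated libraries do not measure mature miRNAs, so the rows of these loci count precursor or host RNA only. The authors' deposited table lists Mir208b at -1.34 (SE 0.52, Benjamini-Hochberg adjusted Wald p = 0.0301), with computed means of 38.7 and 15.3. Mir208a was called lower in the authors' deposited table (adjusted p = 0.0162), on means of 3.19 and 0.248 that are too low to size the change, and Mir499 is listed at 0. On the total-count scale Mir208b lost its call (adjusted p = 0.0807). The lncRNA Mhrt, transcribed antisense from the Myh7 locus and listed under an older symbol, fell by 1.17 on the log2 scale in the authors' deposited table (SE 0.25, adjusted p = 3.2e-05), with means of 368 and 164. It was found by its overlap with Myh7, and without a stated strand setting its reads and those of Myh7 cannot be told apart.

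Myh7b, a slow-type heavy chain, was the least abundant of the 9 genes, at 666 and 595 normalized counts. It stood at -0.16 on the log2 scale in the authors' deposited table (SE 0.13, Benjamini-Hochberg adjusted Wald p = 0.357), positive at 0.13 on the total-count scale. Its 95% interval under the deposited scaling ran from -0.41 to 0.09. A further 6 sarcomeric heavy chains, those of fetal, fast and extraocular skeletal muscle, had base means of 1.28 or less and no adjusted p, so nothing can be said of them at this depth.

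Myl3, the essential light chain of the ventricle, fell most of the 9 genes. Its computed mean was 104569 normalized counts with GFP and 40287 with dnMKL1, which is 61.5% lower and a 2.60-fold decrease. The authors' deposited table gives a log2 fold change of -1.38 (SE 0.12, Benjamini-Hochberg adjusted Wald p = 4.5e-26), and the 95% interval ran from -1.62 to -1.13. The fold change of Myl3 was below that of Myh6 by 0.51, with an interval from 0.045 to 0.98 that holds for any correlation of the errors. After a Bonferroni adjustment over the 36 pairs of the 9 genes, the interval included 0.

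The regulatory light chain Myl2, its partner on the same heavy chain, had a log2 fold change of -0.20 in the authors' deposited table (SE 0.11, Benjamini-Hochberg adjusted Wald p = 0.132) at a base mean of 40940, and 0.09 on the total-count scale. Myl3 was lower than Myl2 in this measure by -1.17, with an interval from -1.62 to -0.73, a pair chosen after its values were seen. Per kilobase of transcript the ratio of Myl3 to Myl2 was 1.89 with GFP and 0.836 with dnMKL1. With all annotated exons merged, Myl3 stayed above Myl2 per kilobase in both groups (51159 against 22459 with GFP, 19710 against 19530 with dnMKL1). Of the 5 other sarcomeric light chains, Myl2 among them, 1 rose and none fell. That gene was Myl1, the essential light chain of fast skeletal muscle, at 1.04 in the authors' deposited table (SE 0.19, adjusted p = 8.6e-07), from 539 to 1111 normalized counts.

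Mybpc3, the cardiac brake on cross-bridges and the second of the 9 genes in base mean, had computed means of 124137 and 114664. On the log2 scale it stood at -0.11 in the authors' deposited table (SE 0.09, Benjamini-Hochberg adjusted Wald p = 0.356), which became 0.17 on the total-count scale. The 95% interval, -0.29 to 0.06, lies above that of Myh6, and the fold change of Myh6 was lower by -0.75 (interval -1.15 to -0.35). Among 4 relatives of Mybpc3, 3 had an adjusted p and 1 rose. Mybpc2, the fast skeletal form, was at 1.04 in the authors' deposited table (SE 0.12, adjusted p = 1.8e-15), from 664 to 1368 normalized counts.

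Mylk3, the kinase that phosphorylates Myl2 in cardiomyocytes, had means of 16229 with GFP and 17822 with dnMKL1. The authors' deposited table lists it at 0.14 (SE 0.13, Benjamini-Hochberg adjusted Wald p = 0.462), with an interval from -0.11 to 0.38, and only on the total-count scale was it called higher. Of 7 other light chain kinase and phosphatase genes, 2 rose, 1 fell and 4 did not pass the test. Ppp1cb, the catalytic subunit of myosin phosphatase, fell by 0.38 on the log2 scale in the authors' deposited table (SE 0.08, adjusted p = 3.8e-05), a call lost at -0.10 on the total-count scale. The targeting subunits Ppp1r12a and Ppp1r12c rose, at 0.29 (adjusted p = 0.0324) and 0.68 (adjusted p = 0.0173) in the authors' deposited table.

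Myom1, the myomesin found in all striated muscle, had means of 20852 normalized counts with GFP and 11446 with dnMKL1, 45.1% lower. The authors' deposited table gives -0.87 (SE 0.12, Benjamini-Hochberg adjusted Wald p = 4.2e-12), with an interval from -1.09 to -0.64. The fold changes of Myom1 and Myh6 were not resolved from each other, with an interval of the difference from -0.45 to 0.45. Myom2, the M-protein of fast fibres and adult heart, had means of 23469 and 18210. With -0.37 on the log2 scale in the authors' deposited table (SE 0.17, Benjamini-Hochberg adjusted Wald p = 0.0805), it did not pass the test. Its raw p was 0.0304, and the difference from Myom1, -0.50 (interval -1.06 to 0.06), was not resolved either.

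Among 10 other M-band genes, 4 fell, 2 rose and 4 did not pass the test, and the list's median was -0.02. On the total-count scale 4 were lower and 5 higher, with a median of 0.27. Ckm, the creatine kinase that regenerates ATP at the M-band, fell by 1.51 on the log2 scale in the authors' deposited table (SE 0.22, Benjamini-Hochberg adjusted Wald p = 9.6e-11). The MuRF ubiquitin ligases did not move one way: Trim54 was at -1.45 and Trim55 at -0.50 in the authors' deposited table, both lower, while Trim63 was higher at 0.14 (adjusted p = 0.0137). Sqstm1, an autophagy receptor recruited by titin kinase, rose by 0.63 on the same scale in the authors' deposited table (SE 0.17, adjusted p = 0.00113). Fhl2, the most abundant of the list, was at 0.02 in the authors' deposited table (adjusted p = 0.910), and at 0.31 and called higher on the total-count scale. Sqstm1 and Trim63 were chosen for naming after their values were seen.

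Ttn, the molecular spring and ruler of the sarcomere, had computed means of 34393 with GFP and 25950 with dnMKL1, 24.5% lower. The authors' deposited table lists -0.41 (SE 0.17, Benjamini-Hochberg adjusted Wald p = 0.0466), with an interval from -0.74 to -0.08. This call is near the threshold: it was lost on the total-count scale (-0.12) and when the adjustment ran over every listed p (0.0575). Ttn at 0.0466 and Myom2 at 0.0805 lie on either side of the threshold with nearly the same fold change and SE. Of 10 genes that bind titin or splice it, 9 had an adjusted p, 2 rose and none fell. Fhl1, a stretch-sensing LIM protein on the titin spring, rose by 1.08 on the log2 scale in the authors' deposited table (SE 0.10, adjusted p = 3.6e-25), and Ankrd1, a stress-induced titin ligand, by 0.45 (adjusted p = 0.0393). Actn2, alpha-actinin and the most abundant of this list, was at -0.35 in the authors' deposited table (adjusted p = 0.102). On the total-count scale 6 of the 9 were higher.

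**Figure D4:**
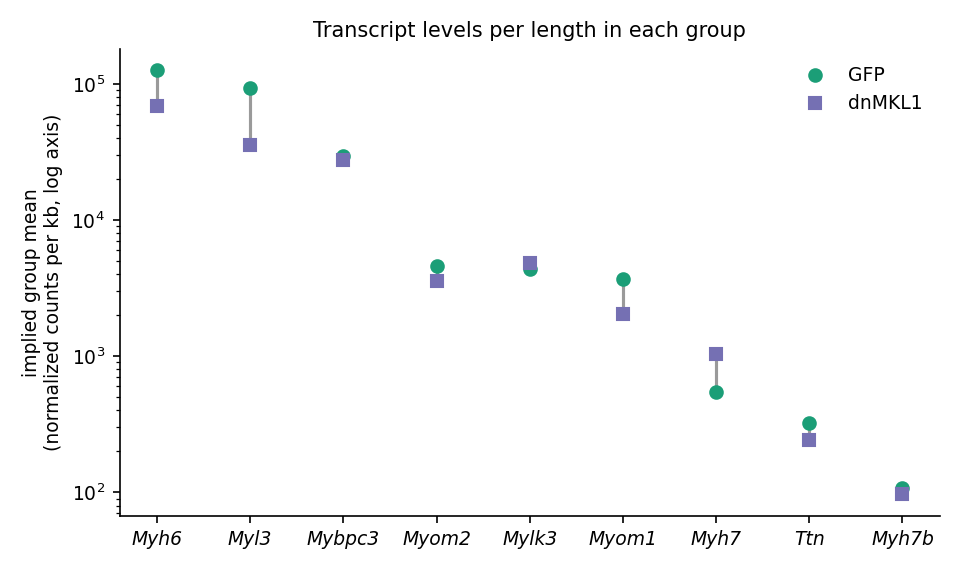
Computed group means per kilobase of transcript (log axis) for each of the 9 genes with GFP and with dnMKL1. The levels run from 125695 for Myh6 to 108 for Myh7b with GFP, and no error is drawn because the table holds no value per library.

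Per kilobase of transcript, the levels with GFP were in the order Myh6 (125695 normalized counts per kilobase), Myl3 (92950), Mybpc3 (29819), Myom2 (4624), Mylk3 (4391), Myom1 (3692), Myh7 (549), Ttn (322) and Myh7b (108). With dnMKL1 the order was Myh6 (68968), Myl3 (35811), Mybpc3 (27544), Mylk3 (4822), Myom2 (3588), Myom1 (2027), Myh7 (1040), Ttn (243) and Myh7b (96.5). With these transcript lengths, only the neighbours Myom2 and Mylk3 changed places. With group means alone, no test of neighbours in this order was made. The transcript of Ttn used here is 106.824 kilobases long, and that of Myl3 1.125. The lengths matter most for Myl3, Myom1 and Myom2, whose base mean per kilobase went from 64381, 2859 and 4106 to 35435, 1544 and 2354 when all annotated exons were merged. With merged exons Mylk3 stood above Myom2 in both groups (3789 against 2651 with GFP, 4161 against 2057 with dnMKL1). Myl3 and Mybpc3 then changed places, from 51159 against 29819 with GFP to 19710 against 27544 with dnMKL1.

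The 9 genes did not move as 1 unit. Of the 36 differences between pairs of fold changes, 14 had a 95% interval that left out 0 whatever the correlation of the errors, and 9 did so after a Bonferroni adjustment over the 36. Myl3 was below Mybpc3 by -1.26 (interval -1.68 to -0.84) and below Ttn by -0.97 (interval -1.54 to -0.40). Mybpc3 and Mylk3 were above Myom1, by 0.75 (interval 0.35 to 1.15) and 1.00 (interval 0.52 to 1.48). Myh7 was in 8 of the pairs, and only its difference from Myl3 left out 0, at 2.30 (interval 0.29 to 4.31). After the Bonferroni adjustment that interval also included 0.

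Of 9 thin filament genes, 6 fell and none rose, with a median of -0.49. On the total-count scale 4 were lower and 2 higher, with a median of -0.20. Actc1, cardiac actin, fell by 1.55 on the log2 scale in the authors' deposited table (SE 0.15, Benjamini-Hochberg adjusted Wald p = 7.7e-24), and Tnnc1, cardiac troponin C, by 1.54 (SE 0.17, adjusted p = 2.5e-18). Myh6 fell less than Actc1: the fold changes differed by 0.69, with an interval from 0.18 to 1.20. The fold changes of Myl3 and Tnnc1 differed by 0.16, with an interval from -0.41 to 0.73. Both pairs were chosen after their values were seen. Transcripts shorter than 2 kilobases had a median of -0.63 among the abundant genes, those of 2 to 6 kilobases -0.58, and the 8 of 6 kilobases or more -0.38. The part of transcript length in the order of Myl3, Myh6 and Ttn was not tested.

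**Figure D5:**
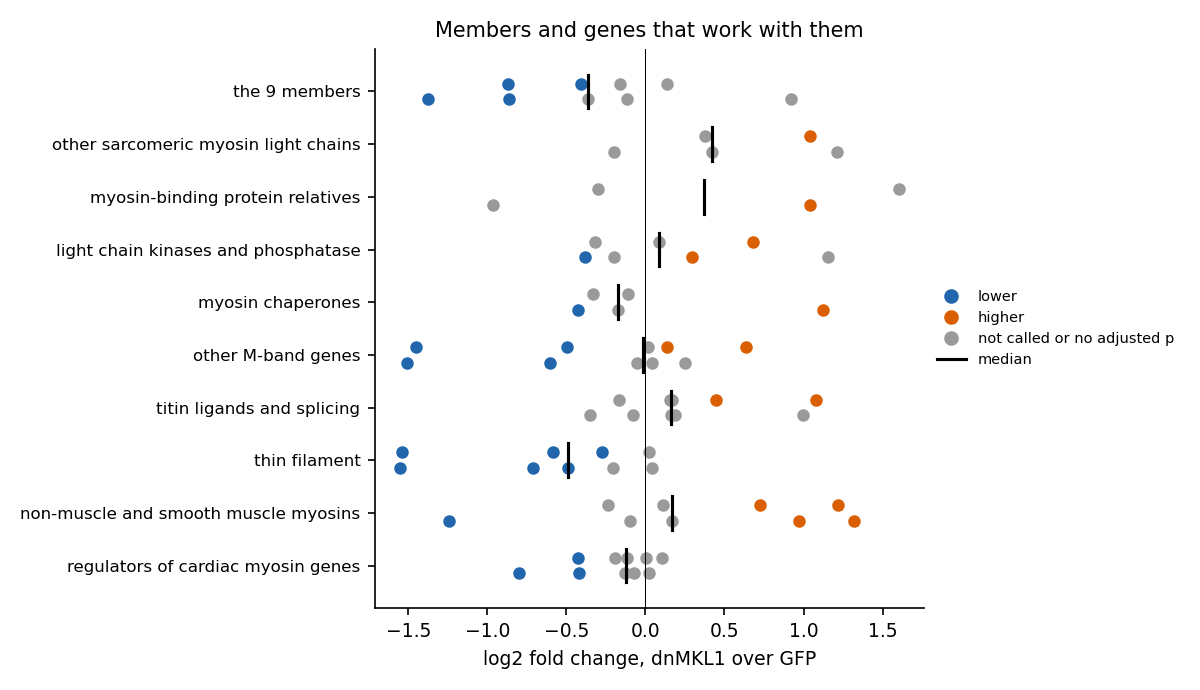
Log2 fold change (horizontal axis) of each gene in the 9 thick filament genes and in 9 lists of genes that work with them, coloured by call, with a black line for each list's median. Of the medians drawn, those of the 9 genes (-0.37) and the thin filament (-0.49) lie lowest; the other sarcomeric heavy chains and the hosted miRNAs are not drawn.

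Of 5 chaperones and assembly factors of myosin, 1 rose, 1 fell and 3 did not pass the test, and their median of -0.17 became 0.12 on the total-count scale. Unc45b, which folds the myosin head, fell by 0.43 on the log2 scale in the authors' deposited table (SE 0.06, Benjamini-Hochberg adjusted Wald p = 4.6e-10), a call lost on the total-count scale (adjusted p = 0.0593). Its cofactor Hsp90aa1 rose by 1.12 in the authors' deposited table (SE 0.11, adjusted p = 1.8e-21). Of 10 transcription factors known to act on cardiac myosin genes, 3 fell and none rose, with a median of -0.12. On the total-count scale 2 were higher and 1 lower, with a median of 0.16. Srf itself fell by 0.80 on the log2 scale in the authors' deposited table (SE 0.10, adjusted p = 2.6e-13). Mef2d (-0.42) and Sox6 (-0.43), a repressor of slow muscle genes, also fell in the authors' deposited table, and both lost their call on the total-count scale, at -0.13 and -0.14.

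Of 9 non-muscle and smooth muscle myosins, 4 rose and 1 fell, and on the total-count scale 6 were higher and 1 lower. Myh9 and Myh10, the non-muscle heavy chains, rose by 1.32 (SE 0.19, Benjamini-Hochberg adjusted Wald p = 3.4e-11) and 1.22 (SE 0.24, adjusted p = 4.8e-06) on the log2 scale in the authors' deposited table. Myl9, a regulatory light chain of smooth muscle, fell by 1.24 in the authors' deposited table (SE 0.20, adjusted p = 1.2e-08). Of the 7 mural markers, Acta2 fell (-1.06), while Cspg4 (2.01), Myh11 (0.73) and Tagln (0.72) rose. Whether the reads of these myosins came from cardiomyocytes or from other cells in the sort was not tested.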

How the data were processed

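Cardiomyocyte RNA from 5 GFP and 5 dnMKL1 libraries was processed by the authors with STAR 2.5.3a, featureCounts, Subread 1.5.2, CASAVA 1.8 and the mm10 build, per the submitters' processing notes. Annotation, strand setting and read length are not given in the sources used here. The deposited base mean is a signal in normalized counts. The deposited log2 fold change comes with an SE, the Wald statistic deposited beside it is a score, and each deposited p-value has a Benjamini-Hochberg adjusted p-value beside it, per the file headers.

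No count per library was used, so no count model was refitted and the planned edgeR test was replaced by the authors' own test. Each group's mean was derived by splitting the base mean by the fold change, for 5 against 5 libraries. Genes with a single read in a single library gave back the size factors. The spread implied by each SE assumes equal spread in both groups. Intervals between genes add both SEs, a bound for any correlation. Per-kilobase values used the GENCODE M21 transcript chosen for each gene. Steps were tested on simulated data. Members, gene lists and tests were chosen with earlier results of these data known, so no list is independent evidence. All members were named, and from each list up to 3 genes with the smallest p-values and the gene with the highest base mean, from marker lists the most abundant and the lowest p, plus Mkl1; some of these are given in sums only. Python 3.11.15, numpy 2.4.6, pandas 2.3.3 and matplotlib 3.10.9 were used. Scaling, thresholds, filters, adjustment and lengths were varied. The values of 1 listed M-band gene are not reported here.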

Additional observations from a re-analysis of the deposited data

How the results depend on the processing

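The table held 1 mean per gene, so libraries could not be left out, and refits with edgeR or DESeq2 under other normalizations or count filters were not run. No paired analysis was possible because the deposited results carry no value per library. Median centring moved no call of the 9 genes. Scaling both groups to one total gave 5685 genes higher and 927 lower (5808 and 891 without Mkl1), against 2340 and 2452 as deposited. With it the log2 fold change of Mybpc3 became 0.17 (0.18 without Mkl1), that of Myh7b 0.13 (0.14), that of Mylk3 0.42 (0.43), which passed the threshold and made 1 of the 9 genes higher (1 without Mkl1), and that of Ttn -0.12 (-0.11), which no longer passed. List medians that turned positive were those of the chaperones, 0.12 (0.13), the other M-band genes, 0.27 (0.28), and the regulators, 0.16 (0.17). Ttn at -0.41 also missed the threshold at an adjusted p of 0.01, with the adjustment over every listed p, and at a minimum log2 change of 0.5, and Myom2 at -0.37 passed at an adjusted p of 0.1. That minimum left 2735 genes called, 1489 higher and 1246 lower. A base mean of at least 100 turned the median of the light chain kinases and phosphatase to -0.20. Merged exons gave base means per kilobase of 35435 for Myl3, 1544 for Myom1 and 2354 for Myom2. Taking the fold changes as uncorrelated, 22 of the 36 pairs left out 0 where 14 had. The cause of these shifts was not tested. At this depth the skeletal heavy chains and Mir208a were too low to compare.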

Other observations

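The authors' deposited table also lists unconventional myosins. Of 23 unconventional myosins with a fold change, 18 had an adjusted p, of which 4 rose and 3 fell, with a median log2 fold change of 0.21. The share called, 38.9%, is near the 34.1% of all tested genes. Myo18b, a striated muscle myosin needed for sarcomere assembly and the most abundant named here, fell by 0.90 on the log2 scale in the authors' deposited table (SE 0.14, Benjamini-Hochberg adjusted Wald p = 1.2e-09). The vesicle motors Myo5b and Myo5c also fell in the authors' deposited table, by 0.79 (SE 0.12, adjusted p = 3.0e-09) and 0.85 (SE 0.22, adjusted p = 5.2e-04). Myo6, the motor that walks to the minus end of actin, rose by 0.96 in the authors' deposited table (SE 0.19, adjusted p = 3.3e-06), and Myo9b, which carries a RhoGAP domain, by 0.83 (SE 0.13, adjusted p = 9.3e-10). These genes were chosen for description after their values were seen.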
